A study of Mus musculus with 19 samples.

Results

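The genes described here were 31 mouse genes of sterol and fatty acid synthesis, taken by symbol from a deposited table of 20998 genes. They comprised 18 enzymes of the sterol branch, 7 enzymes of the fatty acid branch, and 6 genes that regulate these branches or carry sterol, and all 31 had a value on every array. Expression was measured on 19 Affymetrix MoGene arrays with RNA of macrophages and of Ly6C+ inflammatory monocytes, both sorted from bone marrow. The 4 groups were macrophages from metastasis-bearing marrow (n = 5 arrays), macrophages from healthy marrow (n = 5), monocytes from metastasis-bearing marrow (n = 4) and monocytes from healthy marrow (n = 5).

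Metastasis had been produced by intracardiac injection of MetBo2 cells in 4-week-old females. MetBo2 was selected for homing to bone from Met-1, a mouse mammary line that came from a tumour driven by the polyoma middle T oncoprotein. The metastasis groups therefore stand for 1 tumour clone, and no treatment was given. The sources used here name no strain, and for the healthy mice neither an age nor a mock injection. Nor is it stated that each array came from a separate mouse, so the spread that p-values rest on may be technical. The array medians lay between 4.45 and 4.55 on the log2 scale, and the number of arrays limited the precision.

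Both branches draw on cytosolic acetyl-CoA. In the sterol branch, acetyl-CoA is built into mevalonate, isoprenoid diphosphates, squalene and lanosterol, and lanosterol is trimmed to cholesterol. In the fatty acid branch, acetyl-CoA is carboxylated, assembled into palmitate, elongated and desaturated. Transcription of both is driven by the sterol regulatory element binding proteins, which are held in the endoplasmic reticulum when sterol is plentiful, and macrophages use the same system to match membrane lipid to uptake of dead cells and lipoproteins.

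The labelled cell types were checked against marker genes. In healthy marrow, 7 of 12 macrophage markers were higher in macrophages than in monocytes, and 1 was lower. Among them the iron exporter Slc40a1 was higher by 4.09 ± 0.17 (SE, log2 scale) and Vcam1 by 2.05 ± 0.17. Adgre1, which encodes the macrophage antigen F4/80, went against the label and was lower in macrophages by 0.63 on the log2 scale. Of 9 monocyte markers, 6 passed as lower and 3 as higher in healthy macrophages than in healthy monocytes. In metastasis-bearing marrow, 5 passed as lower and 3 as higher. The monocyte antigen gene Ly6c2 was high in both sorts, at 11.5 to 12.2 in healthy macrophages and 12.2 to 12.4 in healthy monocytes. The macrophage sort also held high transcripts of some neutrophil markers, while others were lower than in monocytes. Of 10 such markers, 5 passed as higher and 4 as lower in healthy macrophages than in healthy monocytes. In metastasis-bearing marrow, 6 passed as higher and 3 as lower. Ltf, among the higher ones, averaged 12.29 ± 0.07 in metastasis macrophages and 12.31 ± 0.10 in healthy macrophages (SD). It averaged 6.88 ± 0.26 in metastasis monocytes and 7.40 ± 0.62 in healthy monocytes (SD). The mean level of 10 neutrophil markers was 9.85 to 10.2 in metastasis macrophages, 8.99 to 9.83 in healthy macrophages, 7.99 to 8.47 in metastasis monocytes and 8.13 to 8.78 in healthy monocytes. "Macrophages" below means this sort, and the part of other cells in its values was not tested.

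Upstream sequences were available in RefSeq promoters (build GRCm38.p6, 250 bases before to 50 after a gene's start) for 25 of the 31 genes. They are shown because the genes of these branches share short promoter motifs, and because several varied together from array to array. Shown are 200 bases directly before the start, read 5′ to 3′ along the gene, for Hmgcs1, the sole gene here with the sterol element searched, for Idi1, which passed the test in macrophages, and for Cyp51 and Fasn, the pair of a sterol and a fatty acid enzyme that varied most closely together. Capitals mark matches on either strand to TCACNCCAC, the core of a sterol regulatory element, and to CCAAT, the box bound by the factor NF-Y, which reads ATTGG on the other strand. The Hmgcs1 window is chr13:119690151-119690350 on the plus strand, the Idi1 window chr13:8885406-8885605 on the plus strand, the Cyp51 window chr5:4104698-4104897 on the minus strand and the Fasn window chr11:120824548-120824747 on the minus strand.
Hmgcs1: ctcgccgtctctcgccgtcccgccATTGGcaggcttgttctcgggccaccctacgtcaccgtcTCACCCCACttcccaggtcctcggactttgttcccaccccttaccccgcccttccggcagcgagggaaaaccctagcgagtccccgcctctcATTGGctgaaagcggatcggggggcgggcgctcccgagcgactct
Idi1: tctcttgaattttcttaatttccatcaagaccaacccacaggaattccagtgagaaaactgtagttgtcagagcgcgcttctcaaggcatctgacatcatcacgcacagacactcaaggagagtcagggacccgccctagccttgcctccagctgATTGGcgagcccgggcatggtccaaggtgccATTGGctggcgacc
Cyp51: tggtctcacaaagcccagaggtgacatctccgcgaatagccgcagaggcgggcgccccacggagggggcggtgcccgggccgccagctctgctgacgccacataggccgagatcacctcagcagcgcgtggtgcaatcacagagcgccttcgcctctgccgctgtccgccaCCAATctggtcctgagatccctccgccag
Fasn: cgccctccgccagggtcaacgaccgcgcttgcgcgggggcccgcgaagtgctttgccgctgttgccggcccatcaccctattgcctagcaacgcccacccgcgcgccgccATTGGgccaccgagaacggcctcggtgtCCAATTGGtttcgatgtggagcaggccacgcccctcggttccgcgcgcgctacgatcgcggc
In the Fasn window, a CCAAT and an ATTGG overlap in the palindrome CCAATTGG. Over the full 300-base windows, CCAAT on either strand was found in 14 of 15 sterol enzymes, 3 of 5 fatty acid enzymes and 4 of 5 regulators, against 41.1% of 27025 genes with a promoter. TCACNCCAC was found in 1 of the 25 genes, at bases -137 to -129 of Hmgcs1, against 1.44% of all genes. The E-box CACGTG was found in 5 of the 25 genes (Dhcr7, Hsd17b7, Sc5d, Insig1 and Scap), against 8.09% of all genes. These letters are a description of the windows, and their use in these cells was not measured.

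**Figure D1:**
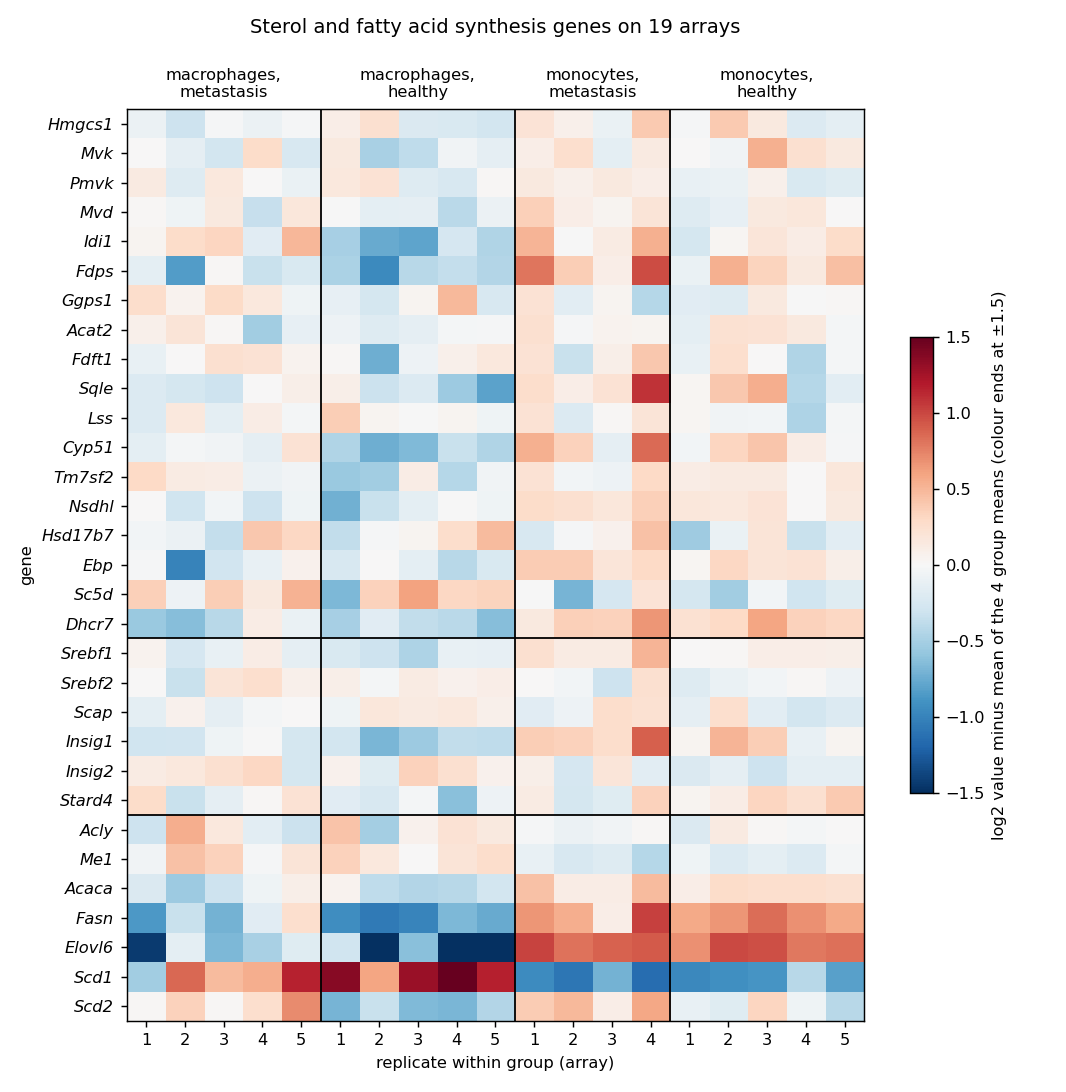
Log2 value of each of the 31 genes on each of the 19 arrays, minus that gene's mean over the 4 group means. Colour ends at 1.5 in either direction. Rows run from sterol enzymes through regulators to fatty acid enzymes. Fasn and Elovl6 are low and Scd1 high in both macrophage groups, and Idi1, Cyp51 and Scd2 are lowest in healthy macrophages.

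The first comparison asked which of these genes differed in macrophages from metastasis-bearing marrow. Of the 31 genes, 2 passed the test, and both were higher in metastasis: Idi1 in the sterol branch and Scd2 in the fatty acid branch. That is 6.45% of the 31, against 1.23% of all 20998 genes, or 0.638% for genes that were higher (limma, Benjamini-Hochberg adjusted p below 0.05). With dim genes left out (those with no group mean above the median gene mean), 2 of 29 passed, or 6.9%, against 3.13% of 11005 genes. At an unadjusted p below 0.05 there were 7 of 31, against 13.6% of all genes. No member was lower past the threshold. In this bulk measurement, fewer cells of a type and less RNA per cell cannot be told apart.

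Idi1 encodes the isomerase that interconverts the activated isoprene units from which all sterols are built. Its log2 values were 5.20, 5.43, 5.47, 4.98 and 5.65 in metastasis macrophages, against 4.65, 4.39, 4.36, 4.90 and 4.70 in healthy macrophages. Every metastasis array lay above every healthy array. The difference was 0.74 ± 0.14 on the log2 scale (SE), or 1.67-fold higher, with a 95% interval of 0.45 to 1.03 and a limma adjusted p of 0.00772.

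Scd2 encodes a stearoyl-CoA desaturase, which makes monounsaturated from saturated fatty acids. It measured 7.13, 7.45, 7.13, 7.37 and 7.82 in metastasis macrophages, against 6.41, 6.78, 6.46, 6.43 and 6.68 in healthy macrophages. The groups again did not overlap. Scd2 was 1.78-fold higher, by 0.83 ± 0.14 on the log2 scale (95% interval 0.54 to 1.12, limma adjusted p = 0.00319).

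Scd1 encodes a second desaturase of the same reaction, and its values leaned the opposite way. It measured 3.23, 4.62, 4.23, 4.30 and 4.91 in metastasis macrophages, against 5.12, 4.34, 5.05, 5.67 and 4.93 in healthy macrophages. The groups overlapped, and metastasis replicate 1 was the lowest of the 10 arrays. The difference of -0.76 ± 0.24 did not pass (limma adjusted p = 0.124).

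The third gene whose groups did not overlap was Cyp51, the demethylase that acts on lanosterol. Over all genes, 0.976% had metastasis macrophages wholly above healthy macrophages. Cyp51 measured 5.60, 5.72, 5.69, 5.62 and 5.96 in metastasis macrophages, against 5.30, 5.01, 5.08, 5.41 and 5.29 in healthy macrophages. All metastasis arrays were higher, by 0.50 ± 0.14, yet the adjusted p was 0.087. Without replicate 3 of the metastasis monocytes, which enters only the shared spread, Cyp51 passed as well, and without healthy macrophage replicate 3 the sterol reductase gene Tm7sf2 passed (0.37 ± 0.12 with all arrays, limma adjusted p = 0.144).

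Fasn, the synthase that assembles palmitate, measured 5.28, 5.81, 5.43, 5.97 and 6.39 in metastasis macrophages, against 5.20, 5.08, 5.15, 5.47 and 5.39 in healthy macrophages. Its 3 highest metastasis arrays lay above all healthy arrays and replicates 1 and 3 did not. The difference of 0.52 ± 0.17 had an adjusted p of 0.15. Elovl6, which elongates palmitate, measured 4.26, 5.56, 5.03, 5.22 and 5.52 in metastasis macrophages, against 5.40, 3.99, 5.07, 4.12 and 4.04 in healthy macrophages. It spread widely in both groups, and its difference of 0.59 ± 0.24 had an adjusted p of 0.266.

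Hmgcs1 and Sqle, which act early and midway in the sterol branch, did not pass. Hmgcs1, which makes HMG-CoA, measured 7.03, 6.81, 7.09, 7.02 and 7.10 in metastasis macrophages, against 7.21, 7.35, 6.90, 6.89 and 6.84 in healthy macrophages. The ranges overlapped, and the interval of the difference ran from -0.28 to 0.23. Sqle, which makes squalene epoxide, measured 5.02, 4.96, 4.91, 5.23 and 5.31 in metastasis macrophages, against 5.31, 4.90, 5.02, 4.68 and 4.42 in healthy macrophages. Its groups overlapped too, with a difference of 0.22 ± 0.19 (limma adjusted p = 0.672).

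Among the regulators, Srebf1 encodes the factor that acts mainly on fatty acid genes and Srebf2 the one that acts mainly on sterol genes. Srebf1 measured 6.31, 6.002, 6.14, 6.37 and 6.12 in metastasis macrophages, against 6.03, 5.95, 5.79, 6.15 and 6.13 in healthy macrophages, a difference of 0.18 ± 0.09 (limma adjusted p = 0.414). Srebf2 measured 7.74, 7.40, 7.93, 7.98 and 7.81 in metastasis macrophages, against 7.82, 7.71, 7.86, 7.80 and 7.83 in healthy macrophages. Its difference was -0.03 ± 0.11, and the spread was wider in metastasis. Insig1, a sterol-sensing retention protein and itself a target of these factors, measured 7.005, 7.02, 7.25, 7.30 and 7.04 in metastasis macrophages, against 7.03, 6.63, 6.77, 6.94 and 6.93 in healthy macrophages. Only its healthy replicate 1 reached the metastasis range, and the difference of 0.26 ± 0.13 had an adjusted p of 0.378.

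Of the 18 sterol enzymes, 14 were higher in metastasis macrophages by any amount, with a median of 0.11, against a median of 0.00 and 50.6% higher over all genes. The 7 fatty acid enzymes had a median of 0.08, with 4 higher, and the 6 regulators a median of 0.09, with 4 higher. With dim genes left out, which drops Me1 and Lss, the fatty acid median was 0.30 and the sterol median 0.11. The median over all genes was then 0.01. The fatty acid median of the 7 enzymes also turned on single arrays. It was 0.17 without healthy macrophage replicate 1 or metastasis macrophage replicate 2, 0.05 without healthy replicate 3, healthy replicate 4 or metastasis replicate 4, and 0.01 without metastasis replicate 5. The remaining members did not pass. In the sterol branch these were the thiolase Acat2, the kinases Mvk and Pmvk, the decarboxylase Mvd, the prenyl synthases Fdps and Ggps1, the squalene synthase Fdft1, the cyclase Lss, and Nsdhl, Hsd17b7, Ebp, Sc5d and Dhcr7 of the late steps. Their differences ran from -0.10 for Lss to 0.22 for Fdps. The citrate lyase Acly, the malic enzyme Me1, the carboxylase Acaca, the escort protein Scap, Insig2 and the sterol carrier Stard4 ran from -0.14 for Scap to 0.24 for Stard4.

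Marker genes of other cell populations were read in the same contrast. The mean level of 15 cell cycle genes was 8.43 to 8.85 in metastasis macrophages and 7.80 to 8.52 in healthy macrophages, with 3 of 15 higher past the test and none lower. The mean level of 12 B and plasma cell genes was 5.27 to 6.19 in metastasis macrophages and 6.29 to 6.75 in healthy macrophages, with 5 of 12 lower. For 9 T and NK cell genes it was 5.39 to 6.26 in metastasis macrophages and 5.05 to 5.62 in healthy macrophages, with 1 higher. Of the 10 neutrophil markers 1 was higher, of 9 monocyte markers 1 was higher, of 12 macrophage markers 2 were lower and of 10 erythroid genes 1 was lower. Higher by any amount were 15 of 15 cell cycle genes, 8 of 10 neutrophil, 7 of 9 monocyte and 8 of 9 T and NK cell markers. So were 1 of 12 B and plasma cell, 5 of 12 macrophage and 4 of 10 erythroid markers, against 50.6% of all genes. The part of these markers in the Idi1 and Scd2 differences was not tested. None of 10 epithelial genes, markers of the tissue the tumour came from, passed (limma), and 1 of them, Cdh1, had an unadjusted p below 0.05. Their mean level was 3.58 to 3.75 in metastasis macrophages and 3.63 to 3.76 in healthy macrophages. Of 45 further genes of sterol and fatty acid handling with a value, 1 passed: Cyp27a1, a mitochondrial enzyme that oxidises cholesterol. It measured 6.88, 7.07, 7.01, 6.83 and 6.71 in metastasis macrophages, against 8.21, 7.50, 7.45, 7.53 and 7.03 in healthy macrophages, lower by 0.64 ± 0.14 on the log2 scale (limma adjusted p = 0.0284). Only healthy replicate 5 entered the metastasis range.

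**Figure D2:**
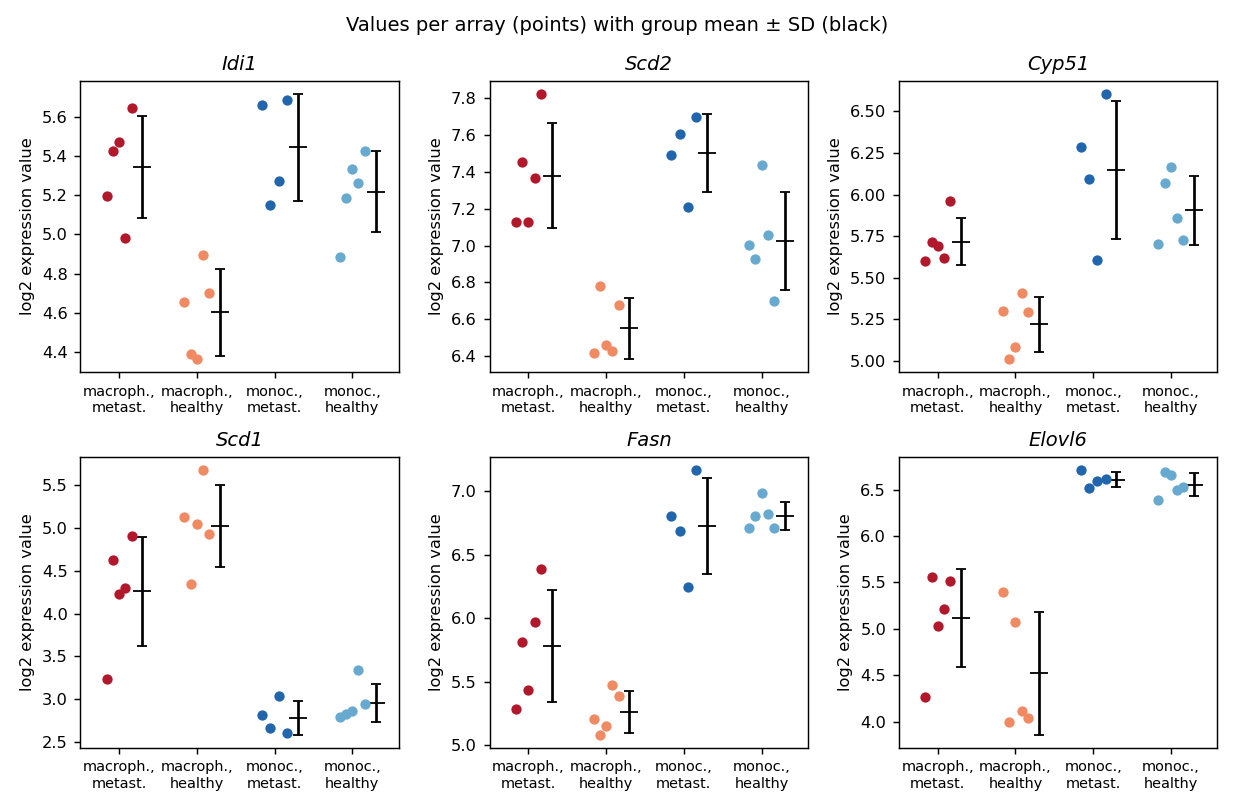
Log2 value per array (points) with group mean ± SD (black) for 6 genes. Idi1, Scd2 and Cyp51 in metastasis macrophages lie wholly above healthy macrophages. Scd1 is near the bottom of the scale in monocytes, and Fasn and Elovl6 are lower in macrophages than in monocytes.

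The same question was asked in monocytes. None of the 31 genes passed (limma), against 0.514% of all genes, and 3 had an unadjusted p below 0.05: Scd2, Insig1 and Pmvk, all higher. Of all genes, 7.58% had such an unadjusted p.

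Scd2 measured 7.49, 7.61, 7.21 and 7.70 in metastasis monocytes, against 7.002, 6.93, 7.44, 7.06 and 6.70 in healthy monocytes. Only healthy replicate 3 reached into the metastasis range. The difference of 0.48 ± 0.15 had an adjusted p of 0.234. Idi1 measured 5.66, 5.15, 5.27 and 5.69 in metastasis monocytes, against 4.88, 5.19, 5.34, 5.26 and 5.43 in healthy monocytes. The groups overlapped, and the difference was 0.23 ± 0.15 (limma adjusted p = 0.827).

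Insig1 measured 7.67, 7.65, 7.57 and 8.21 in metastasis monocytes, against 7.35, 7.81, 7.68, 7.19 and 7.35 in healthy monocytes, a difference of 0.30 ± 0.14 (limma adjusted p = 0.613). Sqle measured 5.49, 5.33, 5.44 and 6.30 in metastasis monocytes, against 5.26, 5.62, 5.76, 4.80 and 5.07 in healthy monocytes. In both genes replicate 4 of the metastasis monocytes stood above every other monocyte array and the remaining arrays overlapped. Hmgcs1 measured 7.31, 7.19, 7.02 and 7.51 in metastasis monocytes, against 7.09, 7.51, 7.26, 6.91 and 6.97 in healthy monocytes, with overlapping ranges. Cyp51 measured 6.29, 6.09, 5.61 and 6.60 in metastasis monocytes, against 5.70, 6.07, 6.16, 5.86 and 5.73 in healthy monocytes. Replicate 3 of the metastasis monocytes was the lowest Cyp51 array of the 9.

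Over all 20998 genes, 621 had metastasis monocytes wholly above healthy monocytes and 514 wholly below, together 5.41%. With dim genes left out, the groups did not overlap in 6.9% of 29 members, against 8.48% of 11005 genes. Of the 31 genes, 0 had metastasis monocytes wholly below healthy monocytes and 2 had them wholly above. They were Srebf1, at 6.50, 6.38, 6.38 and 6.76 in metastasis monocytes against 6.26, 6.27, 6.35, 6.35 and 6.35 in healthy monocytes, and Pmvk, by 0.23 ± 0.10. Srebf2 measured 7.74, 7.69, 7.42 and 7.97 in metastasis monocytes, against 7.54, 7.64, 7.70, 7.75 and 7.65 in healthy monocytes. The Srebf2 groups overlapped, with a difference of 0.05 ± 0.11.

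Of the fatty acid enzymes, Fasn and Elovl6 had small differences in monocytes. Fasn measured 6.81, 6.68, 6.24 and 7.17 in metastasis monocytes, against 6.71, 6.80, 6.98, 6.82 and 6.71 in healthy monocytes. Elovl6 measured 6.71, 6.52, 6.59 and 6.61 in metastasis monocytes, against 6.39, 6.68, 6.66, 6.49 and 6.53 in healthy monocytes. Both pairs of groups overlapped, with differences of -0.08 ± 0.18 for Fasn and 0.06 ± 0.26 for Elovl6. Over the branches, 14 of 18 sterol enzymes were higher by any amount in metastasis monocytes, with a median of 0.15, the 7 fatty acid enzymes had a median of -0.01, and 46.7% of all genes were higher. The sterol median was 0.08 without healthy monocyte replicate 4, 0.09 without metastasis monocyte replicate 4 and at most 0.22 with any other array left out. The fatty acid median ran from -0.06 without healthy replicate 1 to 0.06 without metastasis replicate 3, and was also above 0 without healthy replicate 2 or metastasis replicate 2. None of the 45 further pathway genes passed, and 4 of them had an unadjusted p below 0.05.

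The metastasis effects of the cell types share no array and can be set side by side. The difference had the same sign in both for 10 of 18 sterol enzymes, all of them above 0, or 55.6%. Over all genes the share with the same sign was 55.2%, near that of the sterol enzymes, and 26.2% were above 0 in both. Of the 7 fatty acid enzymes, 6 had the same sign, 3 above 0 and 3 below it. Of the 6 regulators, 3 had the same sign. These shares were not tested. For a direct comparison, the effect in monocytes was subtracted from the effect in macrophages. None of the 31 genes passed (limma), against 0.0619% of all genes, and 4 had an unadjusted p below 0.05, against 7.87% of all genes. Those were Idi1 (0.52 ± 0.20, adjusted p = 0.528), Fasn (0.60 ± 0.25, adjusted p = 0.552), Stard4 (0.45 ± 0.20, adjusted p = 0.585) and Tm7sf2 (0.39 ± 0.17, adjusted p = 0.605). The interval for Idi1 ran from 0.09 to 0.94, and that for Scd2 from -0.07 to 0.77. Idi1 and Scd2 are therefore not shown to differ between the cell types in their metastasis effect, nor to be alike.

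**Figure D3:**
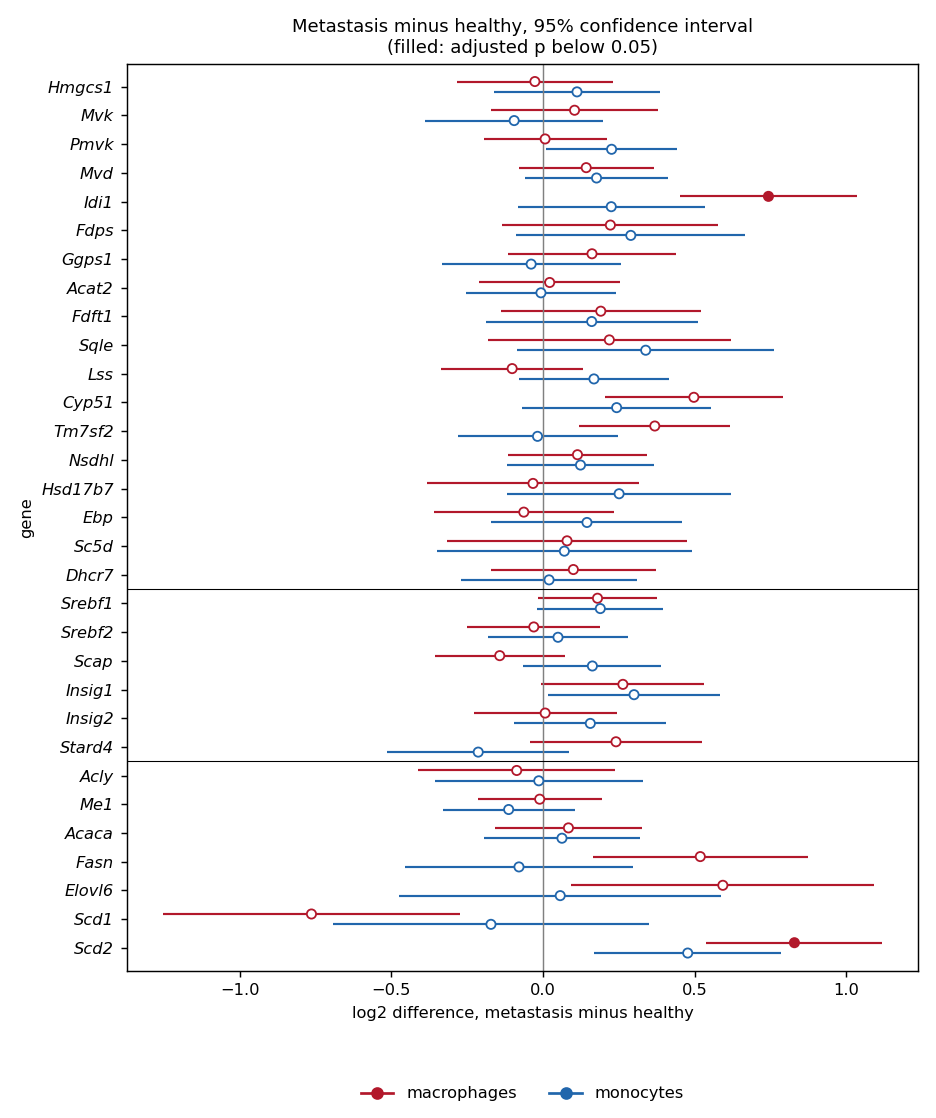
Log2 difference, metastasis minus healthy, with its 95% confidence interval for each gene, in macrophages (red) and monocytes (blue). Filled points passed the test. The only filled points are Idi1 and Scd2 in macrophages.

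The larger contrast was between the cell types. In healthy marrow, 16 of 31 genes differed between macrophages and monocytes, or 51.6%, against 28% of all genes. Lower in macrophages were 14 of them, against 18% of all genes, and higher were 2, against 10%. In 13 of 31 the groups did not overlap, against 20.8% of all genes. The share of all genes is held down by dim ones. With dim genes left out, which drops Lss and Me1, 17 of 29 passed, or 58.6%, against 52.2% of 11005 genes. The groups did not overlap in 41.4% of the 29, against 37% of the 11005. Scd1, among the 17, was kept by this filter only through healthy macrophages (mean 5.02), the group where it was high. After quantile normalization of the deposited values the split was 5 higher and 9 lower, and 11 of the 16 were again among the called genes. Of the branches, 6 of 7 fatty acid enzymes and 7 of 18 sterol enzymes passed. The 7 sterol enzymes were all lower, by at most 1.75-fold. Of the 6 fatty acid enzymes, Me1 was at the floor of the array in both cell types and Scd1 near it in monocytes, and the other 4 were lower.

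In the fatty acid branch, Elovl6 and Fasn were lower in macrophages and Scd1 was higher. Elovl6 averaged 4.52 ± 0.66 in healthy macrophages and 6.55 ± 0.12 in healthy monocytes (SD, n = 5 each), 4.08-fold lower, by 2.03 ± 0.24 on the log2 scale (limma adjusted p = 7.83e-07). Fasn averaged 5.26 ± 0.16 in healthy macrophages and 6.80 ± 0.11 in healthy monocytes, 2.92-fold lower (limma adjusted p = 2.85e-07). No macrophage array reached any monocyte array in either gene.

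Scd1 measured 2.81, 2.67, 3.04 and 2.61 in metastasis monocytes and 2.79, 2.83, 2.87, 3.34 and 2.94 in healthy monocytes. These values are close to the 2.12 to 2.87 at which 4 Y-linked genes lay on these arrays, so Scd1 was near the floor of the array in monocytes. In healthy macrophages it averaged 5.02 ± 0.48, against 2.96 ± 0.22 in healthy monocytes, 4.19-fold higher (2.07 ± 0.24, limma adjusted p = 4.68e-07). Differences are compressed near the floor of an array, so this fold is not an exact value. Scd2 ran the other way, at 6.55 ± 0.17 in healthy macrophages and 7.02 ± 0.27 in healthy monocytes, lower by 0.47 ± 0.14 (limma adjusted p = 0.0127). The Scd2 groups overlapped, and after quantile normalization or without healthy monocyte replicate 3 the gene no longer passed.

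Acaca, the carboxylase that commits acetyl-CoA to fatty acids, was lower in macrophages by 0.52 ± 0.12. Me1, which supplies reducing power, was higher by 0.32 ± 0.10 (limma adjusted p = 0.0157). Me1 measured 2.81, 2.63, 2.48, 2.66 and 2.74 in healthy macrophages, against 2.40, 2.26, 2.32, 2.27 and 2.44 in healthy monocytes, all within the range of the Y-linked genes, so its call rests on signal at the floor. Acly, which makes cytosolic acetyl-CoA, had a difference of 0.09 ± 0.16 and did not pass.

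In the sterol branch the widest differences were in Fdps, Dhcr7, Cyp51 and Idi1, all lower in macrophages. Fdps, which makes farnesyl diphosphate, measured 6.74, 6.26, 6.80, 6.86 and 6.77 in healthy macrophages, against 7.12, 7.75, 7.55, 7.36 and 7.67 in healthy monocytes, lower by 0.81 ± 0.17 (limma adjusted p = 0.000849). Dhcr7, which closes the pathway at cholesterol, measured 5.10, 5.42, 5.22, 5.19 and 4.95 in healthy macrophages, against 5.82, 5.89, 6.18, 5.94 and 5.90 in healthy monocytes, lower by 0.77 ± 0.13 (limma adjusted p = 7.6e-05). In both genes every macrophage array lay below every monocyte array. Cyp51 was lower by 0.68 ± 0.14 and Idi1 by 0.62 ± 0.14. Tm7sf2, Nsdhl and Mvk were lower by 0.40, 0.39 and 0.36. Mvk was the weakest, with a limma adjusted p of 0.0485, and lost its call in 12 of 19 fits with 1 array left out. Tm7sf2 and Mvk no longer passed after quantile normalization.

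Hmgcs1 (-0.11 ± 0.12), Fdft1 (-0.04 ± 0.16) and Ggps1 (0.02 ± 0.13) were near 0 in this contrast. Sc5d (0.44 ± 0.19), Hsd17b7 (0.27 ± 0.17), Lss (0.19 ± 0.11) and Pmvk (0.10 ± 0.10) had values above 0 that did not pass. Sqle, Ebp, Acat2 and Mvd had values between -0.15 and -0.44 that did not pass. Of the regulators, Insig1 (-0.62 ± 0.13), Stard4 (-0.45 ± 0.14) and Srebf1 (-0.31 ± 0.09) were lower in macrophages. Stard4 and Srebf1 no longer passed after quantile normalization, and each lost its call in 1 of 19 fits with 1 array left out. Srebf2, Scap and Insig2 did not pass, with differences of 0.15 to 0.30.

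In metastasis-bearing marrow, 13 of 31 genes differed between the cell types, 2 higher and 11 lower in macrophages, or 41.9%. Of all genes 26.5% differed, 9.6% higher and 16.9% lower. In 11 of 31 the groups did not overlap, against 24.2% of all genes. With dim genes left out the order turned round: 12 of 29 passed, or 41.4%, against 50.6% of 11005 genes. The groups did not overlap in 34.5% of the 29, against 41.6% of the 11005. Scd1, among the 12, averaged 4.26 in metastasis macrophages and 2.78 in metastasis monocytes. Both lie below the median gene mean of 4.51, and the filter kept Scd1 only through healthy macrophages. After quantile normalization the split was 3 higher and 7 lower. Scd1 was higher by 1.47 ± 0.25 (limma adjusted p = 8.6e-05) and Me1 by 0.43 ± 0.10, with the same limits of signal near the floor. Elovl6 was 2.81-fold lower and Fasn 1.93-fold lower. Fdps was lower by 0.87 ± 0.18, Dhcr7 by 0.69 ± 0.14, Insig1 by 0.65 ± 0.14 and Ebp by 0.58 ± 0.15. Acaca, Cyp51, Nsdhl and Srebf1 were lower by 0.32 to 0.50. Sqle was lower by 0.56 ± 0.20 with an adjusted p of 0.048, and without replicate 4 of the metastasis monocytes its difference was -0.33 and its adjusted p 0.252. Without that array Cyp51 and Srebf1 did not pass either, with adjusted p of 0.195 and 0.115. Over all 19 fits with 1 array left out, Sqle lost its call in 11, Cyp51 in 7 and Srebf1 in 2. These 3 genes and Nsdhl lost it after quantile normalization.

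Over all 20998 genes, 4216 were called in both kinds of marrow, and 4212 of these had the same sign. Of the 31 genes, 11 were called in both, and all 11 had the same sign. Idi1 and Scd2 were among the 5 called in healthy marrow alone: in metastasis-bearing marrow Idi1 averaged 5.34 ± 0.26 in macrophages and 5.44 ± 0.27 in monocytes, and Scd2 7.38 ± 0.29 in macrophages and 7.50 ± 0.21 in monocytes. The interaction above is the test of that change, and neither gene passed it. Of the 45 further pathway genes, 11 were higher and 15 lower in healthy macrophages than in healthy monocytes, or 57.8%. Of all genes 28% passed, and 52.2% of the 11005 left by the filter on dim genes, which was not applied to the 45. The widest were Hacd2, a dehydratase of fatty acid elongation (1.52 ± 0.09), the fatty acyl-CoA ligase Acsl1 (1.43 ± 0.14) and the kinase subunit Prkab1 (0.67 ± 0.11) among the higher ones. The lower ones included the lysosomal sterol carrier Npc2 (-0.95 ± 0.11) and the mitochondrial thiolase Acat1 (-0.94 ± 0.11). In metastasis-bearing marrow, 7 of the 45 were higher, again led by Hacd2 (1.55), Acsl1 (1.19) and Prkab1 (0.89). There 13 were lower, led by Acat1 (-1.02), Cyp27a1 (-1.01) and Npc1 (-0.83). Together they were 44.4% of the 45, against 26.5% of all genes and 50.6% of the 11005.

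Markers of other cell types moved with this contrast too. In healthy marrow, 5 of 10 neutrophil markers were higher in macrophages and 4 lower. Of 12 B and plasma cell genes 11 were higher, with a mean level of 6.29 to 6.75 in healthy macrophages and 4.34 to 4.59 in healthy monocytes. Of 9 T and NK cell genes 6 were higher, at 5.05 to 5.62 in healthy macrophages and 3.87 to 4.14 in healthy monocytes. Of 15 cell cycle genes 9 were lower, at 7.80 to 8.52 in healthy macrophages and 8.56 to 8.79 in healthy monocytes. Of 10 erythroid genes 5 were higher, at 4.40 to 4.74 in healthy macrophages and 3.85 to 4.08 in healthy monocytes. In metastasis-bearing marrow, 8 of 12 B and plasma cell, 9 of 9 T and NK cell and 3 of 10 erythroid genes were higher. There 2 of 15 cell cycle genes were higher and 5 lower. Over all genes, 10% were higher and 18% lower in healthy marrow, and 9.6% and 16.9% in metastasis-bearing marrow. The part of these transcripts in the differences between the sorts was not tested.

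**Figure D4:**
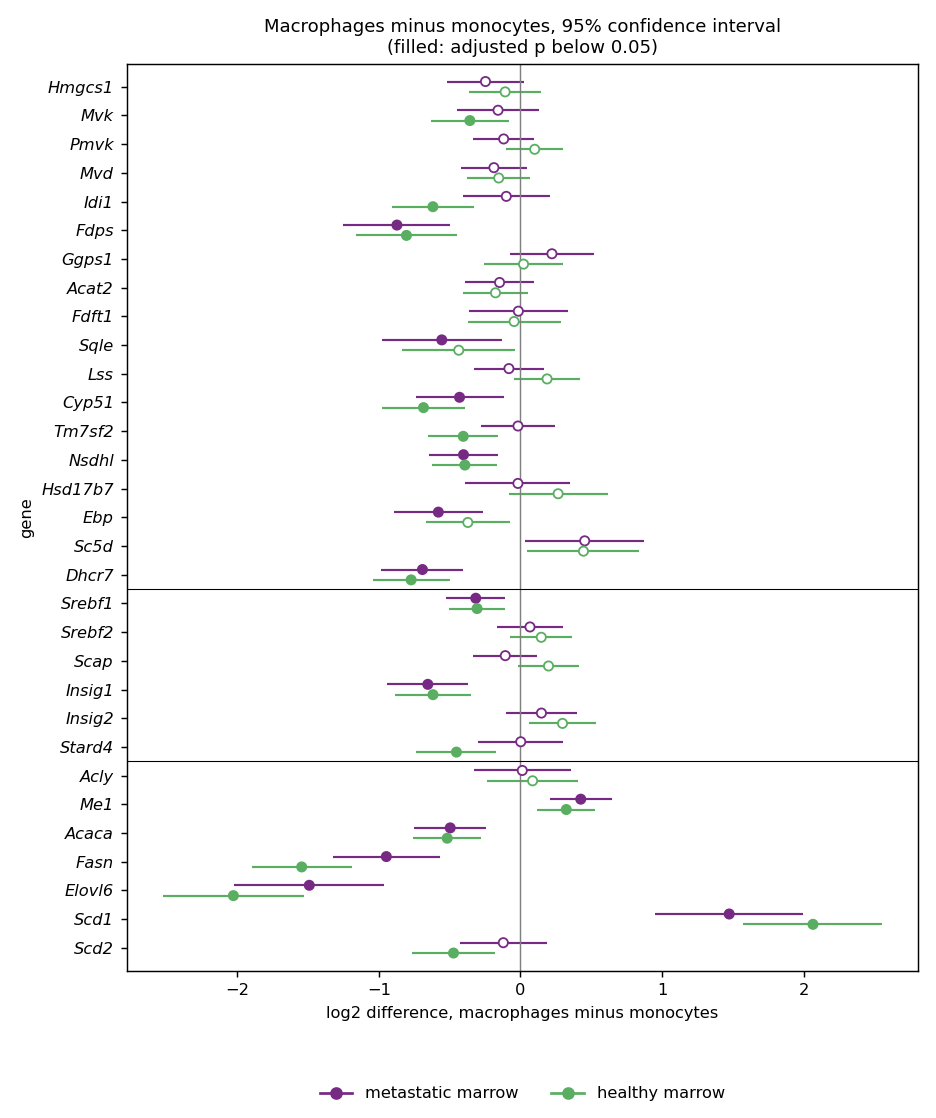
Log2 difference, macrophages minus monocytes, with its 95% confidence interval, in metastasis-bearing marrow (purple) and healthy marrow (green). Filled points passed the test. Elovl6 and Fasn lie farthest below 0 and Scd1 farthest above it in both kinds of marrow.

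To set the branches against each other array by array, each gene was centred on the mean of its 4 group means and the centred values were averaged over a branch. The sterol score averaged -0.04 ± 0.08 in metastasis macrophages and -0.19 ± 0.05 in healthy macrophages, and 0.18 ± 0.16 in metastasis monocytes and 0.05 ± 0.12 in healthy monocytes (SD). Of the metastasis macrophages, 4 of 5 arrays lay above all healthy macrophages, and replicate 2 lay at -0.17, among them. Metastasis monocyte replicate 4 was the highest of all arrays, at 0.37.

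The fatty acid score averaged -0.03 ± 0.29 in metastasis macrophages and -0.20 ± 0.18 in healthy macrophages, and 0.13 ± 0.09 in metastasis monocytes and 0.10 ± 0.08 in healthy monocytes. It spread most in metastasis macrophages, between -0.48 in replicate 1 and 0.27 in replicate 5. The sterol score minus the fatty acid score ran from -0.34 in replicate 2 to 0.47 in replicate 1 of that group, and from -0.03 to 0.17 in metastasis monocytes. In the macrophage score Scd1 offsets Fasn and Elovl6, so a branch mean hides genes that differ in opposite directions.

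Within groups, pairs of genes were correlated over the 19 arrays after the group means were removed, as a description only, since arrays share their preparation and normalization. The median r was 0.16 over 153 pairs of sterol enzymes, 0.29 over 21 pairs of fatty acid enzymes and 0.09 over pairs across the branches, against -0.00 for sterol enzymes paired with all other genes. Among the closest pairs were Cyp51 with Fasn (0.77), Fdps with Srebf2 (0.77), Nsdhl with Sc5d (0.76), Fdft1 with Insig1 (0.76) and Hmgcs1 with Sqle (0.73). The median for sterol pairs was -0.02 over the 10 macrophage arrays and 0.41 over the 9 monocyte arrays, where it stayed between 0.31 and 0.43 when any 1 array was left out. Across the branches it was 0.05 in macrophages and 0.33 in monocytes. Pairs of fatty acid enzymes went the other way, with a median of 0.30 in macrophages and 0.04 in monocytes, and the macrophage value was 0.11 without metastasis replicate 1 and 0.18 without metastasis replicate 5.

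**Figure D5:**
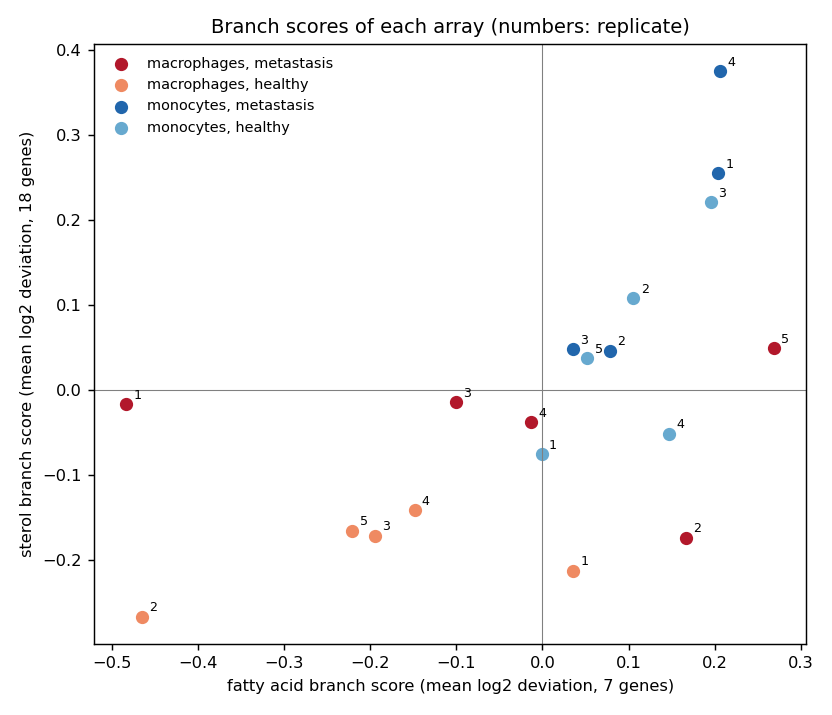
Sterol score against fatty acid score for each array (mean log2 deviation over 18 and 7 genes), with replicate numbers. Monocyte arrays run from low in both to high in both, and metastasis macrophages spread from -0.48 to 0.27 along the fatty acid axis and from -0.17 to 0.05 along the sterol axis.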

How the data were processed

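RNA of 19 sorted samples was measured on Affymetrix MoGene arrays. The deposited values were on a log2 scale, with 1 value per gene and array, made by the authors with the R package oligo, per the submitters' processing notes. The version, background correction, normalization and probe set rule are not given by these notes or the labels. Values ran from 1.38 to 12.6 and were used as deposited, with no filter. Group means of all 4 groups were fitted together with limma 3.58.1 in R 4.3.3, and 5 contrasts were taken (metastasis against healthy marrow for either cell type, the cell types against each other in either marrow, and the interaction). P-values were two-sided and adjusted over all 20998 genes by the Benjamini-Hochberg method, and a gene passed below 0.05. The fit was tested on simulated data.

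The members, branches and other lists were chosen with earlier results of these data known, so no p is given for a list. Every member is named. Values on every array are given for members that passed in a metastasis comparison, for up to 5 with the largest difference each way between healthy cell types, and for Idi1, Hmgcs1, Sqle, Srebf1, Srebf2, Insig1, Fasn, Scd1 and Scd2. Of the other pathway genes, up to 3 called each way per comparison are named, except 1 that is not reported here. Cyp51 and Elovl6 in the metastasis comparisons, and Cyp27a1 in monocytes, were chosen after their values were seen. Alternatives were a fit of the compared groups alone, eBayes with trend and robust settings, array weights, a filter on dim genes, quantile normalization, equal array medians and each array left out. A fit without healthy macrophage replicate 5 and metastasis macrophage replicate 2 together was chosen after seeing the data. Replicate numbers were given in accession order and pair nothing.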

Additional observations from a re-analysis of the deposited data

Results flagged for a closer look

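In 136 tests of 1 member gene or 1 branch mean (sterol, fatty acid or regulator) in 1 group of 4 or 5 arrays, 10 arrays stood apart from the rest of their group (gap to the nearest array over the group's range, Dixon's 95% value). That is 7.35%, and chance alone marks about 1 in 20 groups. In metastasis macrophages, replicate 2 was low for Hmgcs1 (6.81, next 7.02). In healthy macrophages, replicate 2 was low for Fdps (6.26, next 6.74) and for Fdft1 (6.11, next 6.76), and replicate 1 was low for Sc5d (6.10, next 7.09) and high for Lss (4.21, next 3.88). In metastasis monocytes, replicate 4 was high for Sqle (6.30, next 5.49) and for Insig1 (8.21, next 7.67). In healthy monocytes, replicate 4 was low for Lss (3.38, next 3.78) and high for Scd1 (3.34, next 2.94), and replicate 2 was high for Scap (7.51, next 7.13).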

How the results depend on the processing

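The 2 macrophage calls, Idi1 and Scd2, remained in all 7 alternatives and in all 19 fits with 1 array left out, where 2 to 3 members passed. Only 10 of the 19 left out a macrophage array, and the others changed only the shared spread. The limma adjusted p of Idi1 and Scd2 reached at most 0.0352 and 0.0194 among the 7. Neither monocytes nor the interaction had a member past the threshold in any fit run, and the interaction was not run on 2 groups alone. In the healthy cell type comparison 14 to 19 members passed under the alternatives, and 14 to 18 with 1 array left out. In metastasis-bearing marrow 10 to 13 passed, and 10 to 14 with 1 array left out. Of 804 single-gene values, all of members called in the main fit, 753 stayed past the threshold, 51 lost it and 0 reversed. Members that newly passed in another fit, such as Ebp and Insig2 in healthy marrow, are not counted among the 804. Counts over all genes moved more. The macrophage comparison called 259, but 65 with the 2 groups alone, 134 with array weights and 726 without both healthy macrophage replicate 5 and metastasis macrophage replicate 2. Leaving out 1 array gave 153 to 546, the highest without healthy macrophage replicate 5 and the lowest without metastasis macrophage replicate 4. Monocytes called 108, but 210 with the 2 groups alone and 328 with array weights, and 61 to 151 with 1 array left out. The interaction called 13, but 6 with trend and robust settings, 21 with array weights, 61 without both arrays, and 4 to 48 with 1 array left out. The causes were not tested. No paired analysis was possible because the replicate numbers were given in accession order and the labels tie no arrays across groups. Signal near the floor limited Me1 in all groups and Scd1 in monocytes.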
